A study of Mus musculus with 6 samples.

Results

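The mouse mitochondrial genome encodes 37 RNAs, and all 37 had a row in the deposited gene table, which holds 55471 gene identifiers. The members were taken as the rows whose gene name begins with mt-, and they comprise 13 mRNAs, 2 rRNAs and 22 tRNAs. Levels are in TPM, the abundance of a transcript as a share of its library, corrected for gene length. The study profiled total RNA of haematopoietic stem cells (HSCs) sorted from mice as Lin- Kit+ Sca1+ CD48- CD150+ cells, with 3 libraries in each of 2 groups. All mice had the genotype ETV6-RUNX1, named for a fusion of the transcription factor genes Etv6 and Runx1 that is known from childhood acute lymphoblastic leukaemia. The uninduced group received no doxycycline, and the induced group, in which the fusion was switched on, was fed doxycycline for 2 weeks. No doxycycline-fed mice without the fusion were analysed here, so effects of the drug and of the fusion cannot be told apart. The promoter driving the fusion and the age and number of mice behind each library are not given in the sources used here, so the p-values measure only the spread between these libraries, which may be technical.

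Mitochondrial DNA is a small circle that is transcribed from both strands into long precursors. In most places tRNAs lie between the other genes, and cutting them out of the precursor releases the rRNAs and mRNAs. The mRNAs encode core subunits of respiratory chain complexes I, III and IV and of the ATP synthase (complex V), while every other subunit, and every protein that copies, transcribes, processes or translates the mitochondrial genome, is made from nuclear genes. Resting HSCs are known for relying little on respiration, and activation of their mitochondria accompanies exit from rest.

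Mitochondrial RNA took up a smaller share of the induced libraries. In the uninduced libraries it made up 12.9%, 13.2% and 10.98% of all TPM, and in the induced libraries 9.74%, 9.01% and 10.05%. Every induced library lay below every uninduced library, with means of 12.4% ± 1.22 and 9.60% ± 0.533 (SD, n = 3 each). The difference of -2.78 percentage points gave p = 0.1 in an exact two-sided permutation test, the lowest value open to groups of 3, and 0.16 after Benjamini-Hochberg adjustment over the 24 share measures computed. Each of the 24 measures whose groups did not overlap has these same exact permutation p-values.

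The classes differed in how far apart the groups lay. The mRNAs held 1.11%, 1.14% and 0.912% of TPM in the uninduced libraries and 0.608%, 0.580% and 0.606% in the induced ones. The rRNAs held 11.7%, 12.02% and 9.998% of TPM against 9.07%, 8.37% and 9.39%. The tRNAs held 0.0945%, 0.0664% and 0.0709% against 0.0611%, 0.0584% and 0.0529%. In each class all 3 induced libraries were lower, and the mRNAs had the lowest ratio of induced to uninduced means, with a summed level of 10547 ± 1246 TPM without doxycycline and 5982 ± 157 TPM with it (SD, n = 3 each).

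Within the mitochondrial RNA, the balance between listed mRNA and rRNA levels was therefore different. The rRNA levels are those left after any rRNA depletion during library making. This balance may thus vary with that step as well, which was not tested. The mRNAs were 8.59%, 8.63% and 8.30% of mitochondrial TPM in the uninduced libraries and 6.25%, 6.44% and 6.03% in the induced ones. The rRNAs were 90.7%, 90.9% and 91.0% against 93.1%, 92.9% and 93.4%. Neither pair of groups overlapped, and the spread inside each group was small beside the gap (8.51% ± 0.176 against 6.24% ± 0.203 for mRNA, SD, n = 3 each). As a ratio, summed rRNA TPM stood at 10.6, 10.5 and 10.96 per unit of mRNA TPM in the uninduced libraries and at 14.9, 14.4 and 15.5 in the induced ones. The tRNA share of mitochondrial TPM overlapped between the groups, at 0.626% ± 0.115 and 0.601% ± 0.0647 (SD, n = 3 each, exact permutation p = 0.9, adjusted p = 0.9).

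**Figure D1:**
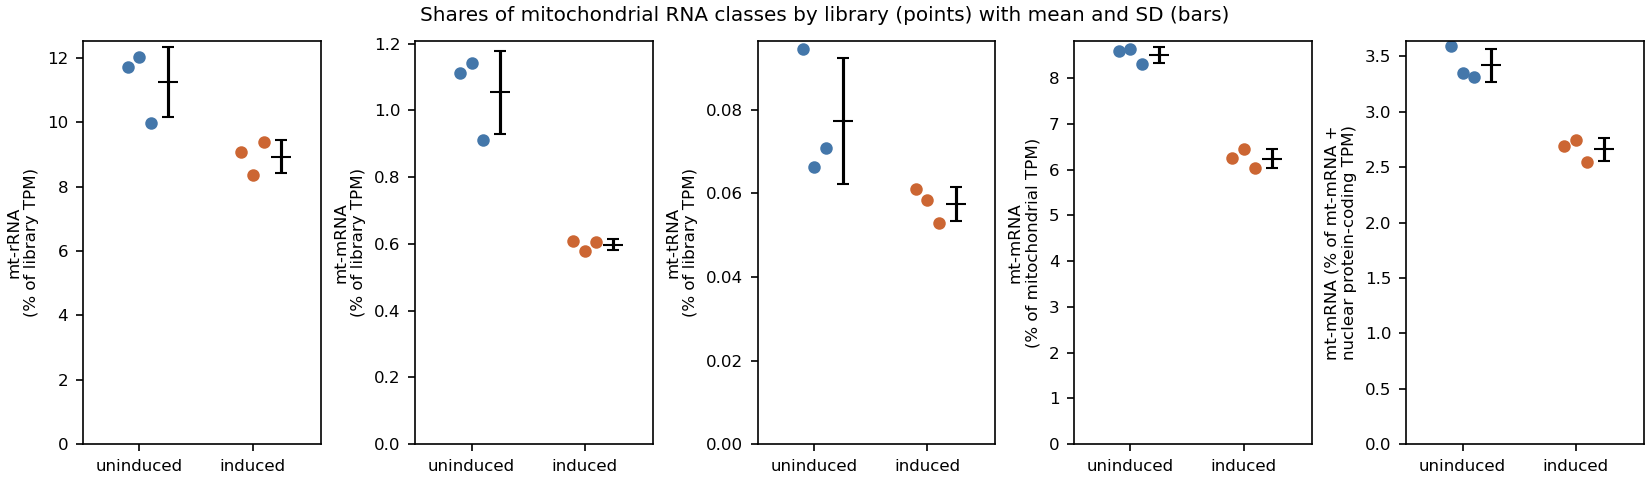
Mitochondrial rRNA, mRNA and tRNA in percent of library TPM, mRNA in percent of mitochondrial TPM, and mRNA in percent of mitochondrial mRNA plus nuclear protein-coding TPM, with 1 point per library (3 uninduced, 3 induced) and bars for the mean and SD of each group. No panel has overlapping groups, and the mRNA share of mitochondrial TPM lies between 8.30% and 8.63% in the uninduced libraries and between 6.03% and 6.44% in the induced ones. The rRNA levels are those left after any rRNA depletion during library making.

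TPM values sum to the same total in every library, so a class that takes more leaves less for the rest. Genes of microRNA type held 19.8%, 18.6% and 30.1% of TPM in the uninduced libraries and 35.02%, 41.2% and 33.9% in the induced ones, and nuclear protein-coding genes held 29.8% ± 3.13 and 21.9% ± 1.35 (SD, n = 3 each). Neither of these pairs overlapped, they were not among the 24 measures tested, and their part in the lower mitochondrial share was not tested. Set against mitochondrial plus nuclear protein-coding TPM alone, mitochondrial RNA made up 30.2%, 28.7% and 29.2% in the uninduced libraries and 30.7%, 30.5% and 30.2% in the induced ones. Here the groups touched and the induced mean was the higher (29.4% ± 0.794 against 30.5% ± 0.250, SD, n = 3 each, exact permutation p = 0.2, adjusted p = 0.229). The mitochondrial mRNAs, measured against themselves plus nuclear protein-coding TPM, still did not overlap, with 3.59%, 3.35% and 3.31% in the uninduced libraries and 2.69%, 2.75% and 2.54% in the induced ones. The lower mRNA share thus held on both denominators, while the lower share of mitochondrial RNA as a whole did not. In bulk RNA, fewer cells of a type and less RNA per cell cannot be told apart.

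Gene by gene, 32 of the 37 members had a mean of at least 1 TPM and were tested with limma on log2(TPM + 1) together with all other genes at or above that level. Of the 32, 7 fell and none rose at an adjusted p under 0.05, where 11.5% of all 13470 genes tested were called (10.2% lower and 1.29% higher). The 7 were 6 mRNAs (mt-Nd1, mt-Nd2, mt-Co1, mt-Nd5, mt-Nd6 and mt-Cytb) and 1 tRNA (mt-Tl1). In 14 of the 32 every induced library lay below every uninduced one, and in none above, against 28.2% lower and 4.83% higher (33.1% together) of all genes tested. The median log2 change was -0.50 over the 32 members, -0.66 over the 13 mRNAs, -0.33 over the 2 rRNAs and -0.22 over the 17 tRNAs tested, beside -0.35 over all genes tested. After median-of-ratios scaling, which centres the typical gene near 0, the members called were mt-Nd1, mt-Co1, mt-Nd5 and mt-Tl1, all lower, beside 5.98% of all genes tested (3.10% lower and 2.88% higher). Rescaling to the sum of nuclear protein-coding genes also called 4 members, all lower, beside 6.01% of all genes tested (2.92% lower and 3.09% higher). After median-of-ratios scaling the median was -0.29 over the mRNAs, 0.08 over the rRNAs and 0.18 over the tRNAs.

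**Figure D2:**
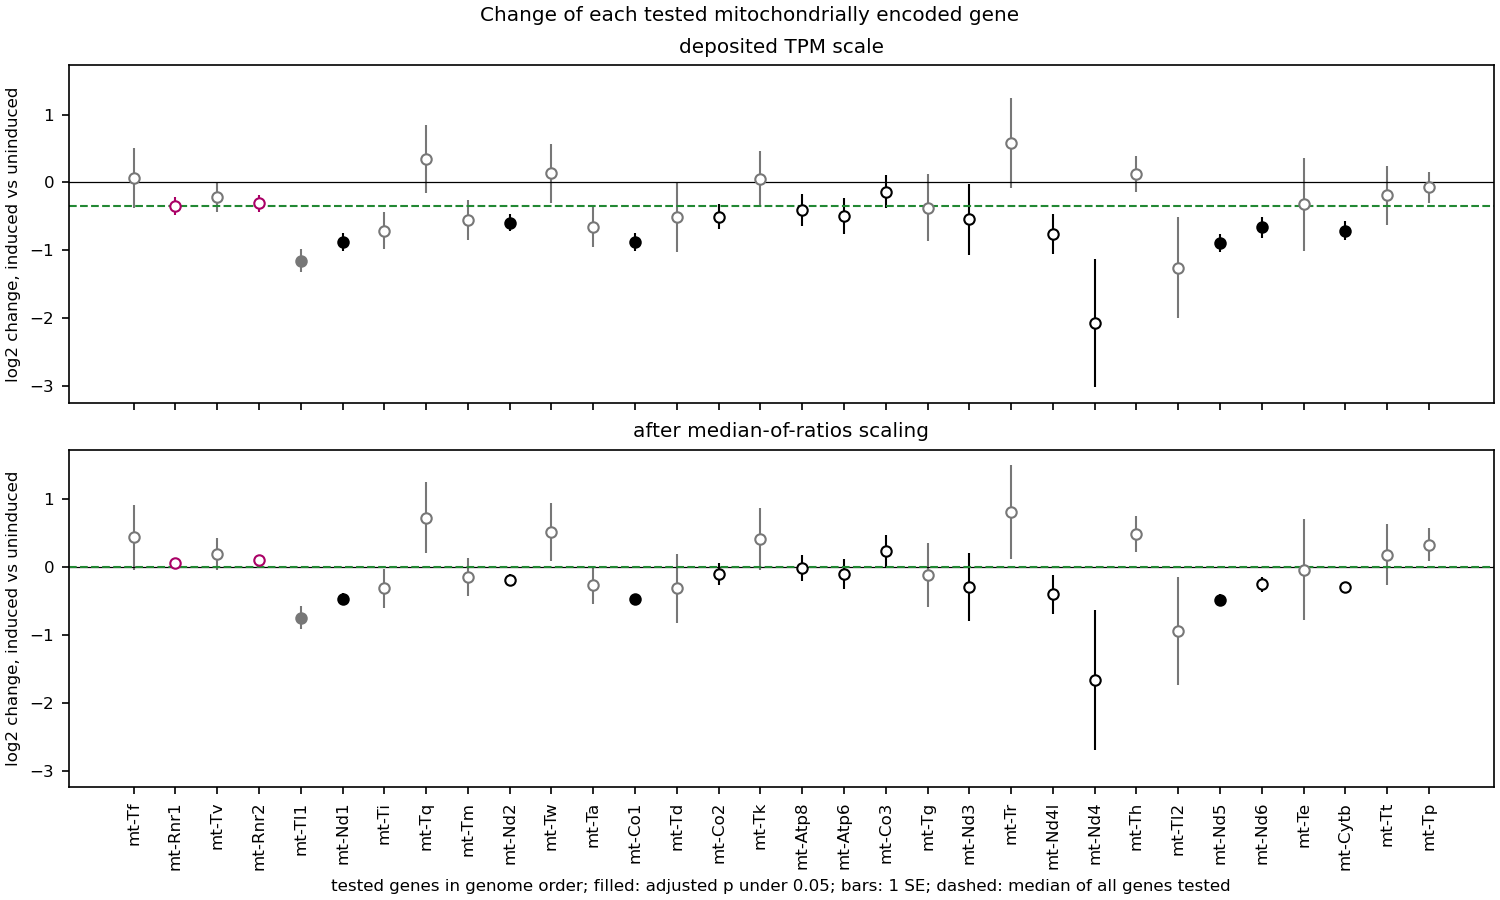
Log2 change (induced against uninduced, on the log2(TPM + 1) scale) of the 32 members tested, as deposited (top) and after median-of-ratios scaling (bottom), in genome order, with bars of 1 SE, filled points for an adjusted p under 0.05, a dashed line at the median of all genes tested, and black for mRNAs, magenta for rRNAs and grey for tRNAs. Filled points number 7 as deposited and 4 after scaling, where the rRNAs sit at 0.06 and 0.10.

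The 2 rRNAs form the core of the small and the large subunit of the mitochondrial ribosome, and they were the most abundant members by more than an order of magnitude. The small-subunit RNA mt-Rnr1 (ENSMUSG00000064337, GRCm38 chrM:70-1024) had 59082, 60368 and 50119 TPM in the uninduced group and 45160.1, 41477 and 46336 TPM in the induced group. The groups did not overlap, and the log2 change was -0.35 (SE 0.13, adjusted p = 0.108). The large-subunit RNA mt-Rnr2 (ENSMUSG00000064339, chrM:1094-2675) had 58234, 59832 and 49857 TPM and then 45523, 42228 and 47536 TPM. It did not overlap either, with a log2 change of -0.31 (SE 0.13, adjusted p = 0.146). Neither rRNA passed the test by limma with Benjamini-Hochberg adjustment, although both had an unadjusted p under 0.05. Their direction depended on the scale, and median-of-ratios values were 0.06 for mt-Rnr1 and 0.10 for mt-Rnr2 (adjusted p = 0.603 and 0.361). The share of all mitochondrial RNA given above is mainly that of the rRNAs.

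**Figure D3:**
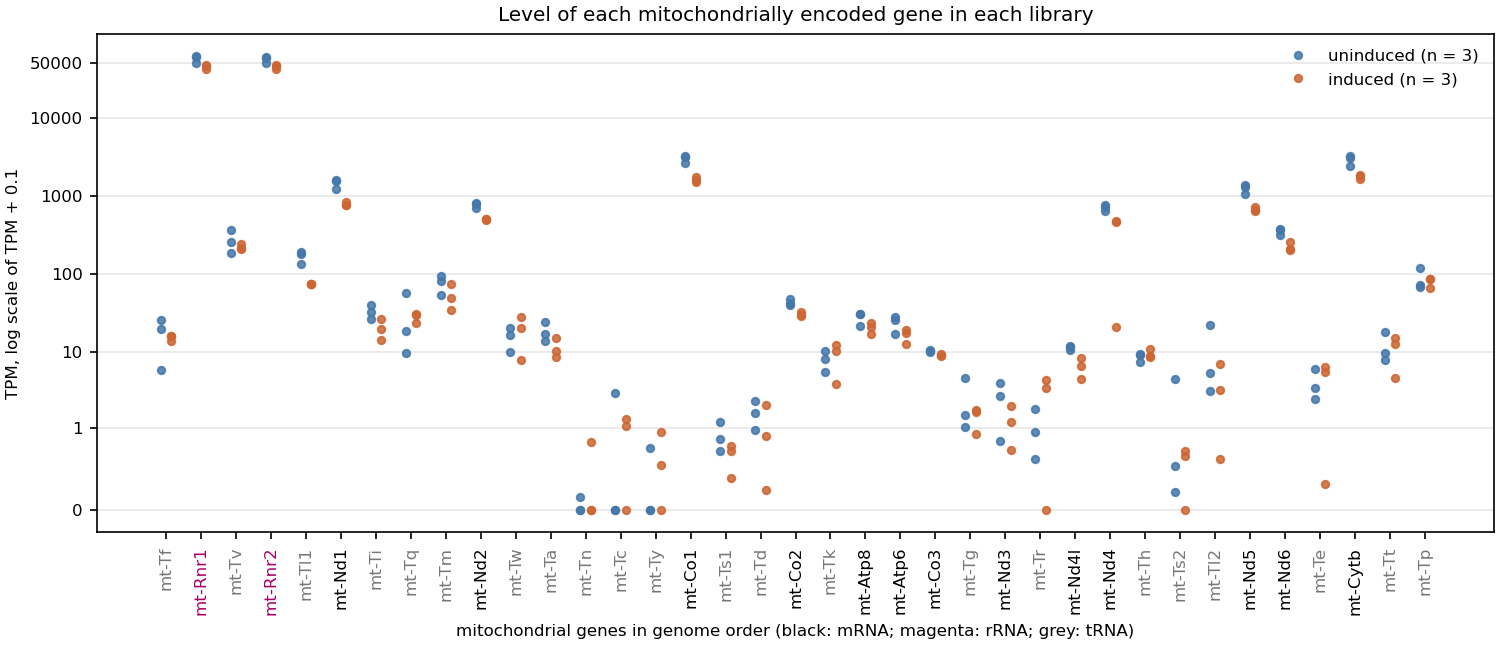
Level of all 37 members in genome order, on a log axis of TPM + 0.1, with 1 point per library in each group and gene names coloured by RNA class. The rRNAs lie between 41477 and 60368 TPM, and in mt-Nd4 induced replicate 3 stands at 20.9 TPM, apart from 471 and 473 TPM in the other induced libraries.

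Complex I, the entry point of electrons from NADH, takes 7 of the 13 mRNAs, and 4 of these fell. For mt-Nd1 (ENSMUSG00000064341, chrM:2751-3707) the uninduced libraries read 1537, 1586 and 1243 TPM and the induced ones 777, 757 and 832 TPM. The lowest uninduced library was well above the highest induced one, and the log2 change was -0.88 (SE 0.14, adjusted p = 0.00489). mt-Nd5 (ENSMUSG00000064367, chrM:11742-13565), which encodes a proton-pumping subunit at the far end of the membrane arm, read 1303, 1372 and 1072 TPM against 641, 657 and 717 TPM. Its groups were as well separated, with a log2 change of -0.89 (SE 0.14, adjusted p = 0.00483). Both were still called lower after median-of-ratios scaling, at -0.47 (adjusted p = 0.0146) and -0.48 (adjusted p = 0.0154).

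mt-Nd2 (ENSMUSG00000064345, chrM:3914-4951), another pumping subunit, had 804, 794 and 705 TPM without doxycycline and 511, 495 and 515 TPM with it. No library overlapped, and the log2 change was -0.59 (SE 0.12, adjusted p = 0.0156). The call was lost under 7 of the 17 alternatives to the fit. Among these were median-of-ratios scaling (-0.19, adjusted p = 0.272) and leaving out induced replicate 1 (adjusted p = 0.0607) or 2 (adjusted p = 0.0673). mt-Nd6 (ENSMUSG00000064368, chrM:13552-14070) is the mRNA encoded on the opposite strand to the other 12. It was at 366, 378 and 317 TPM against 205, 208 and 258 TPM, again without overlap, and the log2 change was -0.66 (SE 0.15, adjusted p = 0.0227). This call was lost under 10 of the 17 alternatives, among them median-of-ratios scaling (-0.25, adjusted p = 0.207), no filter on low genes (adjusted p = 0.0591) and leaving out uninduced replicate 1 (adjusted p = 0.0634), uninduced replicate 2 (adjusted p = 0.0640), induced replicate 1 (adjusted p = 0.0892) or induced replicate 2 (adjusted p = 0.0922). Its share of mitochondrial mRNA TPM overlapped between the groups, at 3.36% ± 0.102 and 3.74% ± 0.457 (SD, n = 3 each, exact permutation p = 0.2, adjusted p = 0.229).

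mt-Nd4 (ENSMUSG00000064363, chrM:10167-11544), also a pumping subunit, was set apart by a single library. Uninduced libraries had 769.6, 730.4 and 641 TPM of it, and induced libraries 473, 471 and 20.9 TPM. Induced replicate 3 was the low one, although the other abundant mRNAs were not low in that library. The log2 change of -2.07 (SE 0.95, adjusted p = 0.187) did not pass the test, and without induced replicate 3 it was -0.59 (adjusted p = 0.0588). A nuclear copy of part of mt-Nd4, the pseudogene Gm28439, was listed at 4.90, 3.02 and 5.04 TPM in the induced libraries, so replicate 3 was not set apart there. The complex I share of mitochondrial mRNA TPM moved with this value: it was 43.2% ± 0.530 and 42.2% ± 3.04 (SD, n = 3 each, exact permutation p = 0.8, adjusted p = 0.835), and without induced replicate 3 the difference was 0.643 percentage points in the other direction.

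Complex III has 1 mitochondrial mRNA, mt-Cytb (ENSMUSG00000064370, chrM:14145-15288), which encodes cytochrome b. It read 3015, 3254 and 2421 TPM in the uninduced libraries and 1779, 1626 and 1879 TPM in the induced ones. All induced libraries were lower, and the log2 change was -0.71 (SE 0.14, adjusted p = 0.0132). The call was lost under 6 of the 17 alternatives, among them median-of-ratios scaling (-0.30, adjusted p = 0.0603), no filter on low genes (adjusted p = 0.0913), and fits without induced replicate 1 (adjusted p = 0.0515) or 2 (adjusted p = 0.0666).

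Of the 3 mRNAs of complex IV, which passes electrons to oxygen, mt-Co1 (ENSMUSG00000064351, chrM:5328-6872) encodes the catalytic subunit. Its values were 3192, 3165 and 2615 TPM without doxycycline and 1603, 1512 and 1754 TPM with it. The groups were far apart, with a log2 change of -0.88 (SE 0.13, adjusted p = 0.00431), and it was still called lower after median-of-ratios scaling (-0.47, adjusted p = 0.0111). mt-Co2 (ENSMUSG00000064354, chrM:7013-7696), which takes electrons from cytochrome c, was listed far lower, at 41.1, 47.9 and 42.5 TPM against 32.7, 29.9 and 29.4 TPM. These groups did not overlap, but the log2 change of -0.50 (SE 0.18, adjusted p = 0.109) did not pass. The structural subunit mt-Co3 (ENSMUSG00000064358, chrM:8607-9390) was listed at 10.2, 10.7 and 10.3 TPM against 9.11, 9.41 and 9.66 TPM. The values did not overlap, yet the log2 change was only -0.13 (adjusted p = 0.767), and it was 0.24 after median-of-ratios scaling.

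The ATP synthase mRNAs mt-Atp8 (ENSMUSG00000064356, chrM:7766-7969) and mt-Atp6 (ENSMUSG00000064357, chrM:7927-8607) overlap on the genome and encode parts of its membrane sector. mt-Atp8 was listed at 31.01, 31.3 and 22.003 TPM in the uninduced libraries and 24.009, 17.5 and 21.2 TPM in the induced ones. mt-Atp6 was listed at 26.2, 28.6 and 17.1 TPM and at 19.3, 12.7 and 17.8 TPM. Both overlapped between groups, and their log2 changes of -0.40 (adjusted p = 0.299) and -0.49 (adjusted p = 0.271) did not pass. The remaining complex I mRNAs had the lowest means of the 13 mRNAs over the 6 libraries. In the uninduced group alone, mt-Nd4l (mean 11.5 TPM) lay above mt-Co3 (mean 10.4 TPM). mt-Nd4l (ENSMUSG00000065947, chrM:9877-10173) was at 11.6, 10.6 and 12.2 TPM against 8.50, 4.48 and 6.64 TPM, with a log2 change of -0.76 (adjusted p = 0.130) and no overlap. mt-Nd3 (ENSMUSG00000064360, chrM:9459-9806) was at 2.71, 3.96 and 0.653 TPM against 0.470, 1.22 and 2.01 TPM, with overlapping groups and a log2 change of -0.54 (adjusted p = 0.541), which ran from -1.003 without uninduced replicate 3 to -0.21 without uninduced replicate 2.

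The mRNAs thus fell into 2 ranges of listed level. Leaving aside mt-Nd4 in induced replicate 3, mt-Nd1, mt-Nd2, mt-Co1, mt-Nd4, mt-Nd5, mt-Nd6 and mt-Cytb were at 205.4 TPM or more in every library. By contrast, mt-Co2, mt-Atp8, mt-Atp6, mt-Co3, mt-Nd4l and mt-Nd3 never passed 47.9 TPM. The 6 calls among mRNAs were all in the upper range, whose median log2 change was -0.88, and none was in the lower range, whose median was -0.50. In that lower range 2 of 6 genes had an unadjusted limma p under 0.05 with lower values, beside 3260 of all 13470 genes tested, and 3 had groups that did not overlap, beside 28.2% of all genes.

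The 6 low mRNAs lie side by side on the mitochondrial genome, in a stretch that has a near-identical copy in the nuclear genome. In the GENCODE M21 transcripts of GRCm38, 7 annotated pseudogenes on the minus strand of chromosome 1 match, in the same order, the stretch from base 6390 to base 11042 of chrM. The copies of mt-Co2 (Gm28661), mt-Atp6 (Gm10925), mt-Co3 (Gm28437) and mt-Nd4l (Gm10222) matched over 681, 678, 783 and 294 aligned bases without a mismatch. The copy of mt-Nd3 (Gm28438) had 1 mismatch in 345 bases, that of mt-Co1 (Gm29216) 1 in 483 bases, and that of mt-Nd4 (Gm28439) none in 876 of the gene's 1378 bases. mt-Atp8 lies within the same stretch, but no annotated nuclear transcript held a near-identical copy of the whole gene. The copies on either side of mt-Atp8 (Gm28661 and Gm10925) are spaced on chromosome 1 as the genes are on chrM. A copy of mt-Atp8 lying between them could therefore have been missed.

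A read that falls wholly inside such a copy and covers no mismatch matches the nuclear and the mitochondrial genome equally well. The reads were sequenced for 100 cycles from each end, so each gene was searched for the share of its 100-base windows that occur letter for letter in an annotated nuclear transcript. That share was 99.9% for mt-Co3, 99.5% for mt-Co2, 99.5% for mt-Atp6, 98.5% for mt-Nd4l and 97.6% for mt-Nd3. For the abundant mRNAs it was 60.8% in mt-Nd4, 30.8% in mt-Co1, 3.19% in mt-Nd2 and 0 in mt-Nd1, mt-Nd5, mt-Nd6 and mt-Cytb, and it was also 0 in both rRNAs and in mt-Atp8. Only annotated nuclear transcripts were searched, so the 0 for mt-Atp8 does not show that this gene has no nuclear copy. How the authors' aligner and counter treated reads with more than 1 match is not given in the sources used here. The levels of mt-Co2, mt-Atp6, mt-Co3, mt-Nd4l and mt-Nd3, and in part of mt-Nd4 and mt-Co1, are therefore uncertain. That of mt-Atp8 may be uncertain too.

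**Figure D4:**
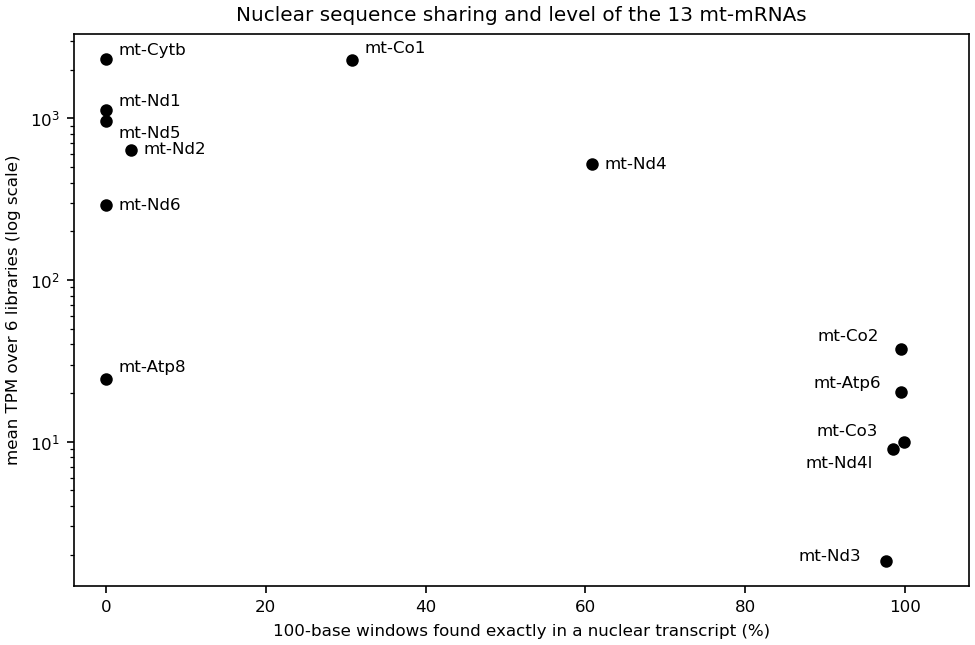
Mean level over the 6 libraries in TPM (log axis) of each of the 13 mitochondrial mRNAs against the percent of its 100-base windows found exactly in an annotated nuclear transcript, with 1 point per gene. The 5 genes at 97.6% or more lie at or below 37.3 TPM, mt-Atp8 lies at 24.5 TPM with 0%, and mt-Cytb and mt-Co1 lie at 2329 and 2307 TPM. Nuclear sequence outside annotated transcripts was not searched.

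The closeness of the match is shown with the opening of mt-Nd3 and the same bases of its copy, because here the copy was listed far above the gene. Capitals mark the mismatch, which is T3C counted from 1 at the first base of the gene. The mitochondrial bases are chrM:9459-9558 on the plus strand, and the copy is chr1:24613020-24613119 on the minus strand, both from GENCODE M21 transcripts of GRCm38.
mt-Nd3: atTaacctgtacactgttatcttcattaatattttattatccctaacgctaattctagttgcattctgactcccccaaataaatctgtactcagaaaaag
Gm28438: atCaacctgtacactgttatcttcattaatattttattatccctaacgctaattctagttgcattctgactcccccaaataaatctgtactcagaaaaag

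A more diverged copy is shown for contrast, since mt-Cytb shares no 100-base window with it. Gm11410 on chromosome 4 matched mt-Cytb over 1142 bases at 92.91% identity, with 81 mismatches. In the stretch printed, chrM:14667-14766 on the plus strand and chr4:80004511-80004610 on the plus strand, capitals mark the 9 mismatches.
mt-Cytb: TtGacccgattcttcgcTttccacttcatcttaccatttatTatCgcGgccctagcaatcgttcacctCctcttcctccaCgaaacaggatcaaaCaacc
Gm11410: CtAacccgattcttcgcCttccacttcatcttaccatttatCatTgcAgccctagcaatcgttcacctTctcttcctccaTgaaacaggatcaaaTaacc

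The copies themselves were listed with levels. The mt-Nd3 copy Gm28438 was at 122, 55.4 and 76.6 TPM in the uninduced libraries and 78.4, 133 and 114.5 TPM in the induced ones, far above mt-Nd3 itself in all 6. The other 6 copies stayed between 0.0724 and 17.5 TPM. None of the 7 copies tested by limma was called in either direction, and 2 had an unadjusted p under 0.05 with lower values, beside 3260 of all 13470 genes tested. When each of the 7 mitochondrial genes was summed with its copy, an alternative chosen after seeing the data, the number of mRNAs called lower was again 6. Of the 6 called as deposited, only mt-Co1 was among the genes summed, and its copy Gm29216 was listed at 4.52 to 17.5 TPM. The unchanged count therefore does not show whether shared reads affect the calls. With its copy added, the log2 change of mt-Nd3 turned from -0.54 to 0.37 (adjusted p = 0.439).

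The tRNAs carry amino acids to the mitochondrial ribosome and mark the cutting sites of the precursor. Their genes are shorter than a single read, and the table does not separate mature tRNAs from precursors, so a tRNA value here is the listed level over that gene. Of the 22, 17 had a mean of at least 1 TPM, and 5 (mt-Tn, mt-Tc, mt-Ty, mt-Ts1 and mt-Ts2) were below it and not tested. Listed means over the 6 libraries ranged from 0.113 to 249 TPM among the 17 tRNAs outside the stretch copied to chromosome 1 (median 15.1) and from 0.586 to 8.53 TPM among the 5 inside it (median 1.80). No whole tRNA sequence of the 22 was found in an annotated nuclear transcript. That search could have missed tRNA copies lying between the annotated pseudogenes on chromosome 1.

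Only mt-Tl1, the leucine tRNA that lies between mt-Rnr2 and mt-Nd1, was called. Its uninduced values were 136, 191 and 182 TPM, and its induced values 76.0, 74.6 and 74.5 TPM. The induced libraries were nearly equal and all below the uninduced ones, with means of 170 ± 29.4 and 75.0 ± 0.823 TPM (SD, n = 3 each) and a log2 change of -1.15 (SE 0.17, adjusted p = 0.00433). It was still called lower after median-of-ratios scaling, at -0.75 (adjusted p = 0.0359), and under each of the 17 alternatives to the fit, where the change ran from -0.72 to -1.30 and the adjusted p from 0.00334 to 0.0390. The tRNA on the other side of mt-Rnr2 gave no such difference. This was mt-Tv, the valine tRNA, at 371, 187 and 259 TPM against 247, 219 and 213 TPM, with overlapping groups and a log2 change of -0.22 (adjusted p = 0.572). These 2 tRNAs flank the same rRNA and had the highest means of the class over the 6 libraries. In the induced libraries alone, the mean of mt-Tp (81.1 TPM) was above that of mt-Tl1 (75.0 TPM). The sequences of mt-Tv and mt-Tl1 are printed from the GENCODE M21 transcripts with the anticodon in capitals. mt-Tv lies at chrM:1025-1093 and mt-Tl1 at chrM:2676-2750, both on the plus strand.
mt-Tv: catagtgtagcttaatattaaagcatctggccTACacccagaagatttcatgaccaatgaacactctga
mt-Tl1: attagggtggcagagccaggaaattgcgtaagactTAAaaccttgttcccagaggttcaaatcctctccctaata

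The level of mt-Tl1 was also set against those of its neighbours. As a ratio to mt-Nd1 it was 0.0886, 0.120 and 0.146 in the uninduced libraries and 0.0978, 0.0985 and 0.0895 in the induced ones, which overlap. As a ratio to mt-Rnr2 it was 0.00234, 0.00319 and 0.00365 against 0.00167, 0.00177 and 0.00157, which do not, while the mean ratio of mt-Tv to mt-Rnr2 was 0.00490 without doxycycline and 0.00503 with it. As a share of all mitochondrial tRNA TPM, mt-Tl1 was 14.4%, 28.8% and 25.7% against 12.4%, 12.8% and 14.1%, without overlap, although uninduced replicate 1 was close to the induced libraries.

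The other 15 tRNAs tested had log2 changes from -1.25 (mt-Tl2, adjusted p = 0.310) to 0.58 (mt-Tr, adjusted p = 0.609), and none passed. With a library left out, mt-Tl2 ran from -1.84 (without induced replicate 2) to -0.52 (without uninduced replicate 1), and mt-Tr from 0.13 (without induced replicate 2) to 1.34 (without induced replicate 3). Of the 17 in all, 11 had values below 0 and 6 above. The proline tRNA mt-Tp was at 121, 69.6 and 72.4 TPM in the uninduced libraries and 87.8, 88.1 and 67.5 TPM in the induced ones. The initiator and elongator methionine tRNA mt-Tm was at 81.7, 94.0 and 54.9 TPM against 75.4, 49.2 and 35.2 TPM. Both overlapped between groups. The isoleucine tRNA mt-Ti was at 40.05, 26.6 and 32.98 TPM against 14.3, 26.6 and 19.9 TPM, where the lowest uninduced value was above the highest induced one by less than 0.1 TPM (log2 change -0.71, adjusted p = 0.119). The minor tRNAs mt-Tq, mt-Tf, mt-Tw, mt-Ta, mt-Tt, mt-Th, mt-Tk, mt-Tl2, mt-Te, mt-Tg, mt-Tr and mt-Td all overlapped between groups, as in mt-Tq with 58.1, 9.73 and 18.6 TPM against 31.5, 24.04 and 29.97 TPM.

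**Figure D5:**
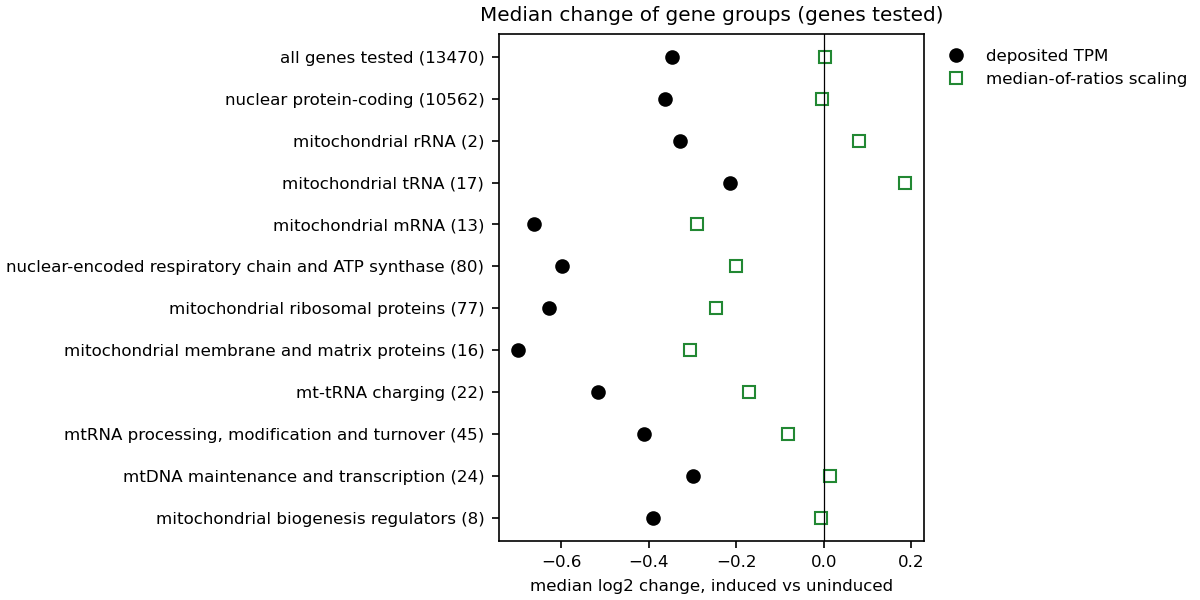
Median log2 change (induced against uninduced, on the log2(TPM + 1) scale) of the mitochondrial RNA classes and of nuclear gene groups, as deposited (filled circles) and after median-of-ratios scaling (open squares), with the number of genes tested in brackets. As deposited the medians are -0.66 for mitochondrial mRNAs, -0.60 for nuclear-encoded subunits of the respiratory chain and ATP synthase, and -0.35 for all genes tested.

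Respiratory complexes need subunits from both genomes, so the nuclear-encoded ones were set beside the mitochondrial mRNAs. Of 88 nuclear genes for subunits of the respiratory chain and ATP synthase, a group picked by symbol after seeing the data, 80 were tested, 19 fell and none rose, with a median log2 change of -0.60, where 10.2% of all genes tested were called lower. After median-of-ratios scaling, with 3.10% of all genes called lower, 1 of the 80 was called lower and the median was -0.20, beside 3 of the 13 mitochondrial mRNAs and their median of -0.29. Mitochondrial mRNAs made up 68.7%, 67.9% and 66.4% of the mRNA TPM of the respiratory chain and ATP synthase in the uninduced libraries and 63.7%, 64.9% and 63.9% in the induced ones. The groups did not overlap, and the difference between them was -3.55 percentage points. Of the mitochondrial ribosomal protein genes, which build the ribosome on the 2 rRNAs, 77 of 78 were tested, 9 fell and none rose, a share near the 10.2% of all genes called lower, with a median of -0.63, and 1 was called lower after median-of-ratios scaling with a median of -0.25.

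The nuclear genes that maintain, express and use mitochondrial DNA were taken from lists, whose counts are to be read against the 10.2% of all genes tested that were called lower. Among 25 genes for maintenance and transcription of mitochondrial DNA, 24 were tested and none was called by limma in either direction, with a median of -0.30. At an unadjusted p under 0.05, 6 of the 24 were lower, a share near that of all genes (3260 of 13470). Among 46 genes that process, modify or degrade mitochondrial RNA, 45 were tested, 4 fell and none rose, with a median of -0.41, so the share called was not above that of all genes. These were Lrpprc, which stabilises mitochondrial mRNAs (21.2 ± 1.43 against 7.22 ± 2.58 TPM, SD, n = 3 each, log2 change -1.47, adjusted p = 0.0114), Tbrg4, of a family that handles precursor RNAs (37.3 ± 6.27 against 13.7 ± 4.62 TPM, -1.42, adjusted p = 0.0121), the pseudouridine synthase Pus1 (22.9 ± 5.03 against 10.2 ± 3.06 TPM, -1.11, adjusted p = 0.0382) and the rRNA methyltransferase Mrm3 (16.955 against 4.52 TPM, -1.75, adjusted p = 0.0412). Of the 4, Lrpprc alone was still called after median-of-ratios scaling (-1.10, adjusted p = 0.0492), though not after rescaling to nuclear protein-coding genes (adjusted p = 0.0536) or without induced replicate 2 (adjusted p = 0.0504). Of the 17 alternatives, Mrm3 lost its call in 11, Pus1 in 10 and Tbrg4 in 4.

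Of 22 genes tested that charge mitochondrial tRNAs, 3 fell and none rose, with a median of -0.52, a count close to the share of all genes called lower. Gars and Kars load glycine and lysine, on cytosolic as well as mitochondrial tRNAs. Mean levels of Gars were 45.2 ± 6.40 and 18.7 ± 2.16 TPM (log2 change -1.23, adjusted p = 0.00685), those of Kars were 82.2 ± 15.8 and 35.1 ± 4.17 TPM (SD, n = 3 each, -1.19, adjusted p = 0.00684), and both were still called after median-of-ratios scaling (adjusted p = 0.0404 and 0.0257). The mitochondrial arginine enzyme Rars2 fell from 16.3 to 7.70 TPM (-0.99, adjusted p = 0.0463), but this call was lost under 12 of the 17 alternatives, among them median-of-ratios scaling (adjusted p = 0.256) and leaving out any single library (adjusted p from 0.0581 to 0.132). Of 8 regulators of mitochondrial biogenesis tested, the coactivator Pprc1 fell (16.2 to 4.20 TPM, -1.66, adjusted p = 0.0207), none rose, and the median was -0.39. None of these 8 was called after median-of-ratios scaling, where Pprc1 had an adjusted p of 0.0832, and its call was lost under 7 of the 17 alternatives.

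Genes for abundant mitochondrial membrane and matrix proteins were listed as a stand-in for the amount of the organelle, which was not itself measured. Of these 16, 6 fell and none rose, with a median of -0.70, beside 10.2% of all genes called lower. Among them were the import channel Timm23 (17.5 against 5.87 TPM, -1.44, adjusted p = 0.0312), the inner membrane scaffold Phb (46.6 against 19.2 TPM, -1.18, adjusted p = 0.0341), citrate synthase Cs (40.7 against 18.8 TPM, -1.09, adjusted p = 0.0160) and the ATP/ADP carrier Slc25a5 (153.6 against 76.2 TPM, -1.01, adjusted p = 0.00537). After median-of-ratios scaling 1 of the 16 was called, Slc25a5 (-0.60, adjusted p = 0.0299), beside 3.10% of all genes called lower. Timm23 and Phb each lost the call under 10 of the 17 alternatives, and Cs under 7.

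Markers of the sorted cells and of other blood cells moved with the groups as well. The 10 stem cell markers were all detected, and their summed level was 492 to 627 TPM in the uninduced libraries and 631 to 699 TPM in the induced ones. Of the 10, 4 rose (Procr, Hlf, Mllt3 and Ly6a) and 2 fell (Kit and Ctnnal1), while after median-of-ratios scaling 5 were called higher and none lower. Over all genes tested, 1.29% rose and 10.2% fell as deposited, and 2.88% and 3.10% were called higher and lower after that scaling. The sorting marker Ly6a, which encodes Sca1, went from 14.2 to 37.3 TPM and Kit from 172 to 95.7 TPM, while Slamf1, which encodes CD150, had means of 13.1 and 7.53 TPM with overlapping groups. The 12 erythroid markers summed to 57.2 to 62.9 TPM without doxycycline and 419 to 482 TPM with it, and 7 of the 9 tested rose, both as deposited and after median-of-ratios scaling. They included the haemoglobin genes Hbb-bs (15.2 ± 7.29 against 177 ± 22.3 TPM, SD, n = 3 each, adjusted p = 0.000255) and Hba-a1 (12.8 ± 5.94 against 98.5 ± 14.9 TPM, adjusted p = 0.000834), and Alas2, the erythroid enzyme that starts haem synthesis (1.88 ± 0.907 against 15.1 ± 3.67 TPM, adjusted p = 0.00415). Of the other 2 tested, neither passed, and the erythropoietin receptor gene Epor pointed the other way without overlap (3.42, 2.10 and 4.57 TPM against 0, 0 and 1.45 TPM, adjusted p = 0.0638). The haemoglobin genes have near-identical paralogs, so their single values are uncertain. Their part in the mitochondrial values was not tested. T and NK cell markers summed to 5.84 to 15.8 TPM and to 0, all of it from Nkg7, with the other 7 of 8 at 0 in every library. Nkg7 was listed at 0 in all 3 induced libraries and was called lower as deposited (adjusted p = 0.00378) and after median-of-ratios scaling (adjusted p = 0.00585). B cell markers summed to 4.35 to 9.86 TPM and 3.11 to 3.85 TPM, with 6 of 8 at 0 throughout, and the sums of the megakaryocyte, granulocyte and monocyte, basophil and mast cell, endothelial and stromal lists overlapped between groups. Single genes of these lists were called all the same, and they are named here after their values were seen. Among megakaryocyte markers Ppbp (0.876, 0 and 0 TPM against 11.9, 14.6 and 6.64 TPM, adjusted p = 0.00343) and Pf4 (28.4 against 60.7 TPM, adjusted p = 0.0253) rose, while Gp9 (16.7 against 2.96 TPM, adjusted p = 0.0187) fell. Among granulocyte and monocyte markers Prtn3 (18.9 against 42.3 TPM, adjusted p = 0.0114) rose and Camp (16.4 against 5.83 TPM, adjusted p = 0.0283) fell. After median-of-ratios scaling Ppbp, Pf4 and Prtn3 were still called higher, Lyz2 was called higher as well (0.85, adjusted p = 0.0130, although its deposited values overlapped), and Gp9 (adjusted p = 0.0623) and Camp (adjusted p = 0.103) were not called.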

How the data were processed

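Per the labels' protocols, total RNA of sorted cells was made into stranded libraries and sequenced as paired reads. Kits of this type include a step that depletes rRNA-derived cDNA, mitochondrial rRNA included, so rRNA levels are those left after any such step. Per the submitters' processing notes, the tools were bcl2fastq, HISAT2, StringTie and DESeq2 with build GRCm38. The annotation release, versions and settings are not given in the sources used here. The authors deposited gene-level TPM, whose columns summed to between 999976 and 999993. The same deposited table gives the GC content of each gene in percent, which was not used in a test. TPM keeps no read depth, so depth is unknown and no counting intervals are given.

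Rows were summed per gene identifier (60496 rows, 55471 identifiers; none of the 37 members repeated). Genes whose mean reached 1 TPM were tested with limma 3.58.1 (R 4.3.3; eBayes with a variance trend, two-sided) on log2(TPM + 1), with a pseudocount of 1, which understates changes of low genes. Benjamini-Hochberg adjustment ran over all 13470 genes with a threshold of 0.05. The script was tested on simulated data with 200 changed genes, where it recovered 32% of changes of 1 log2 unit and 85% of changes of 2. A change that did not pass is therefore not shown to be absent. Shares were tested by exact two-sided permutation over libraries (scipy 1.17.1), 24 in all, of which 5 were added after seeing the data. Sequences and nuclear copies come from GENCODE M21 transcripts searched with blastn 2.17.0 and by exact 100-base windows. All 13 mRNAs and 2 rRNAs are named, as are tRNAs whose mean reached 1 TPM. From each nuclear list up to 4 called genes per direction with the largest changes and no overlap are named, and marker genes for the sorting markers and lists whose sums did not overlap. Called megakaryocyte, granulocyte and monocyte markers fall outside this rule and were named after their values were seen, as were the erythroid examples. The 5 untested tRNAs were named after their values were seen. The members and lists were chosen with earlier results of these data known. Alternatives covered scaling, filter, pseudocount, variance trend, leave-one-out fits and blocking by replicate number.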

Additional observations from a re-analysis of the deposited data

How the results depend on the processing

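Of the 7 members called lower, 4 were called after median-of-ratios scaling, 4 after rescaling to nuclear protein-coding genes and 1 without the variance trend, and 4 to 7 in leave-one-out fits (4 without induced replicate 1 and 4 without induced replicate 2). For the mRNAs the counts were 3, 3, 0 and 3 to 6 beside 6, with 3 again without either of those libraries. Without a filter 5 members and 4 mRNAs were called lower. mt-Nd1, mt-Co1 and mt-Nd5 lost their call only without the variance trend (adjusted p = 0.0651, 0.0639 and 0.0634 by limma). Quantile normalization called 1 rRNA lower, mt-Rnr1 (-0.40, adjusted p = 0.0363). In the maintenance list 1 gene was called with a mean of at least 5 TPM, and 0 to 1 with a library left out. The processing list gave 1 without a filter, 1 after median-of-ratios scaling, 1 after quantile normalization, 0 after rescaling to nuclear protein-coding genes, 2 without the trend, and 1 to 5 with a library left out, the low counts being without induced replicate 2 (1), induced replicate 3 (2) or uninduced replicate 2 (2). For the biogenesis list these counts were 0 without a filter, 0, 0 and 0 under the 3 scalings and 0 to 1 with a library left out (0 without uninduced replicate 1, induced replicate 1 or induced replicate 3). For the membrane and matrix list they were 1, 1 and 1 under the scalings, 1 without the trend and 1 to 6 with a library left out, with 1 without induced replicate 1, 2 without induced replicate 2, 2 without uninduced replicate 2 and 3 without uninduced replicate 1. The charging list gave 2 or 3 under each alternative run. The cause was not tested.

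Signs of changes that had not passed also turned. After median-of-ratios scaling, quantile normalization and rescaling to nuclear protein-coding genes the log2 changes were 0.10, 0.016 and 0.13 for mt-Rnr2, 0.19, 0.15 and 0.22 for mt-Tv, 0.24, 0.22 and 0.26 for mt-Co3, 0.18, 0.18 and 0.21 for mt-Tt, and 0.33, 0.31 and 0.36 for mt-Tp. mt-Rnr1 was at 0.061 and 0.091 after the first and the last, mt-Atp8 at 0.018 after the last, and mt-Nd3 at 0.37 with its copy. With a library left out the ranges were -0.53 to 0.46 for mt-Tf, -0.46 to 0.034 for mt-Tv, -0.21 to 1.02 for mt-Tq, -0.22 to 0.64 for mt-Tw, -0.23 to 0.50 for mt-Tk, -0.66 to 0.075 for mt-Tg, -0.81 to 0.57 for mt-Te, -0.48 to 0.27 for mt-Tt and -0.21 to 0.18 for mt-Tp. The difference in the tRNA share of mitochondrial TPM ran from -0.087 to 0.027 percentage points, and that in the complex I share of mitochondrial mRNA from -2.31 to 0.643. No label says that the replicate numbers pair the libraries. Deviations of same-numbered libraries correlated at 0.021, -0.015 and 0.017, and those of differently numbered ones at -0.04 to 0.022. With 3 libraries per group these values cannot settle whether the libraries are paired. With a replicate block 5 members and 4 mRNAs were called lower, mt-Nd2 (adjusted p = 0.0608) and mt-Nd6 (adjusted p = 0.0697) no longer passing. With TPM alone, what depth limits cannot be given.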

Other observations

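The balance of the 2 rRNAs, which derive from the same precursor, was close to equal: mt-Rnr1 made up 50.2% ± 0.116 of their summed TPM in the uninduced libraries and 49.6% ± 0.220 in the induced ones (SD, n = 3 each, exact permutation p = 0.1, adjusted p = 0.16). The difference of -0.668 percentage points is small, but the groups did not overlap.

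The genes on the minority strand, which are mt-Nd6 and several tRNAs, held 0.0495% ± 0.00724 of TPM in the uninduced libraries and 0.0351% ± 0.00237 in the induced ones (SD, n = 3 each, exact permutation p = 0.1, adjusted p = 0.16), and these groups did not overlap.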
